A study of Homo sapiens with 29 samples.

Results

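The ATP-binding cassette (ABC) genes were followed in tumours of a breast cancer line and of a paclitaxel-resistant derivative under vehicle, decitabine, doxorubicin or both drugs. Members were the protein-coding rows whose symbol is ABC, a letter from A to G and a number, which gave 45 of the 58302 genes in the count table: 12 of subfamily A, 9 of B, 11 of C, 4 of D, 1 of E, 3 of F and 5 of G. TAP1 and TAP2, peptide transporters of subfamily B that carry other symbols, were left out, as were 18 non-coding or pseudogene rows with an ABC symbol, which held 402 counts in all. Of the 45 members, 23 passed the filter on low counts and were tested, and 22 did not, 6 of them with no count in any library.

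ABC proteins couple ATP binding and hydrolysis to the movement of substrates across membranes. Most are pumps of lipids, drugs, conjugates or metabolites, and several of them, above all ABCB1 (P-glycoprotein), ABCC1 and ABCG2, are known for exporting cytotoxic drugs from tumour cells. Subfamilies E and F lack transmembrane domains and act on the ribosome. Paclitaxel and doxorubicin are both substrates of ABCB1.

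The 29 libraries came from orthotopic xenografts of the human triple-negative breast carcinoma line MDA-MB-231 and of a paclitaxel-resistant line derived from it. Parental groups received vehicle (4 libraries), 0.4 mg/kg decitabine, a DNA methyltransferase inhibitor (4), 1 mg/kg doxorubicin, an anthracycline (3), or both agents at those doses (4). Resistant groups received vehicle (4 libraries), decitabine (3), doxorubicin (4) or both (3), at the same doses. The hosts of all groups were SCID-beige mice, without mature lymphocytes of the T and B types but with stroma and myeloid cells, and dosing lasted 26 days (2 cycles, each of 12 days, and a break of 2 days between them). The parental line was implanted at 250000 cells and dosing began on day 6; the resistant line was implanted at 1500000 cells and dosing began on day 16, and the lines cannot be told apart from these settings. Mice carried tumours bilaterally and no label ties a library to a mouse, so some libraries may share an animal and the p-values then describe only the variation among these samples. Whether the resistant line is a single clone was not given in the sources used here.

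Totals ran from 3398261 to 5382295 counts per library, with a median of 4600007. Libraries were made from poly(A) RNA by 3′-end tag sequencing, in which a transcript gives tags near its 3′ end whatever its length, so CPM, that is counts over the scaled library size, are compared between genes without a length correction. Parental vehicle 3 and resistant decitabine 2 stood apart from the other libraries of their groups on the second principal component. All 10 genes of the basal-like and mesenchymal marker list were tested, and their summed level lay between 6519 and 8970 CPM in every library, against 40.4 to 78.6 CPM for 5 luminal markers. In bulk tumours, fewer cells of a type and less RNA per cell cannot be told apart.

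The 2 most abundant members were the ribosome-associated ones. ABCF1, a factor of translation initiation, averaged 233 ± 75.4 CPM (SD, n = 29) and ABCE1, which splits ribosomes after termination, 99.8 ± 14.8 CPM. ABCB9 (lysosomal), ABCC4 and ABCC5 (exporters of nucleotides and conjugates at the plasma membrane) lay below them at 42.6, 35.1 and 34.6 CPM. ABCC4 and ABCC5 differed from each other by less than their spread over libraries, and ABCF2, ABCA5 and ABCD3 formed the next such group at 22.6, 22.2 and 21.4 CPM. The plot of levels shows that the multidrug pumps ABCG2 (3.85 CPM) and ABCC1 (2.06 CPM) lay far below these, and that ABCB1 was not among the tested genes at all.

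**Figure D1:**
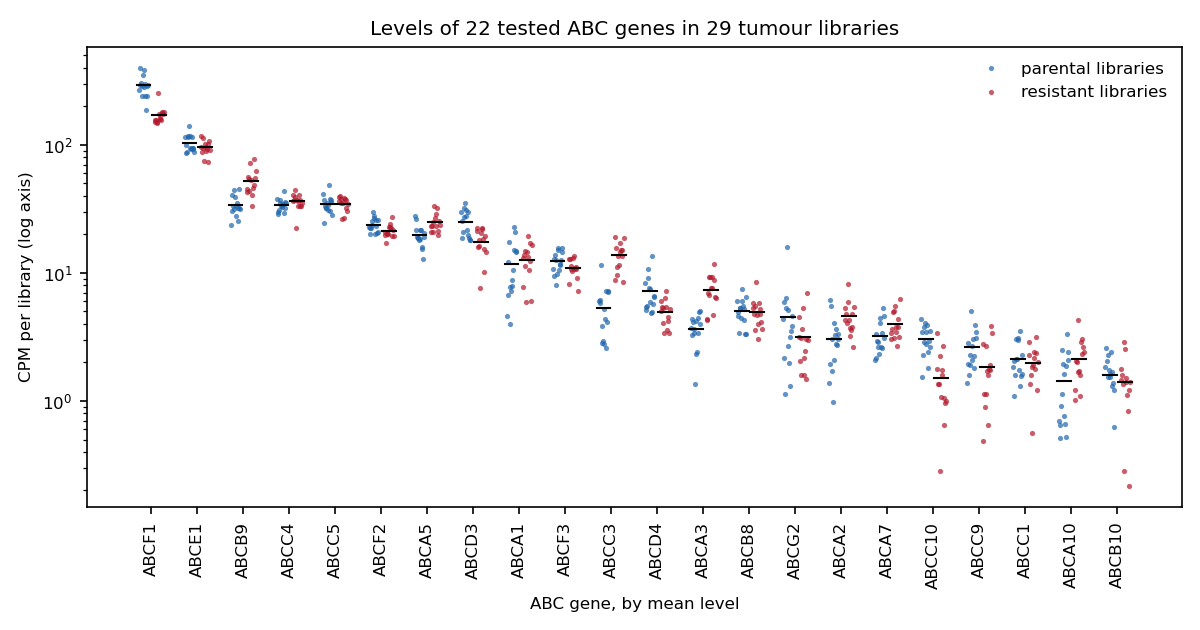
CPM per library (log axis) of 22 of the 23 tested ABC genes, ordered by mean level, with parental libraries in blue, resistant libraries in red and bars at the line means; zero values cannot be drawn on this axis (ABCB10 in parental vehicle 3). ABCF1 leads with 188.8 to 399.7 CPM in parental libraries and 148 to 256 CPM in resistant ones, while ABCA10 ran from 0.514 to 4.32 CPM and ABCB10 from 0 to 2.88 CPM over all libraries.

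Summed over the 45 members, ABC transcripts reached 695 ± 51.3 CPM (SD, n = 15) in parental and 583 ± 18.6 CPM (SD, n = 14) in resistant libraries. ABCF1 alone made up 41.7% of the parental sum and 29.1% of the resistant sum. Without it, the sums were 404 ± 30.2 and 413 ± 16.1 CPM.

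Between the lines, averaged over the 4 treatments, 12 of the 23 tested members differed in edgeR's quasi-likelihood test (adjusted p under 0.05), 6 higher and 6 lower in the resistant line. This share of 52.2% lies near the 46% of all 13495 genes tested that were called (22.6% higher, 23.4% lower). The median log2 fold change was -0.11 over the members and -0.0035 over all genes. Higher in resistant tumours were ABCC3, ABCA3, ABCA10, ABCB9, ABCA2 and ABCA5, and among the lower were ABCC10, ABCF1, ABCD3, ABCD4 and ABCF2. By subfamily, 4 of 6 tested A members were higher and 0 lower, both tested D members and 2 of 3 F members were lower, and C (6 tested) had 1 member higher and 1 lower. All but ABCF2 kept the call in the 29 fits that left out 1 library each and under the 7 alternative settings of processing. No member separated all parental from all resistant libraries, as against 3.34% of all genes.

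**Figure D2:**
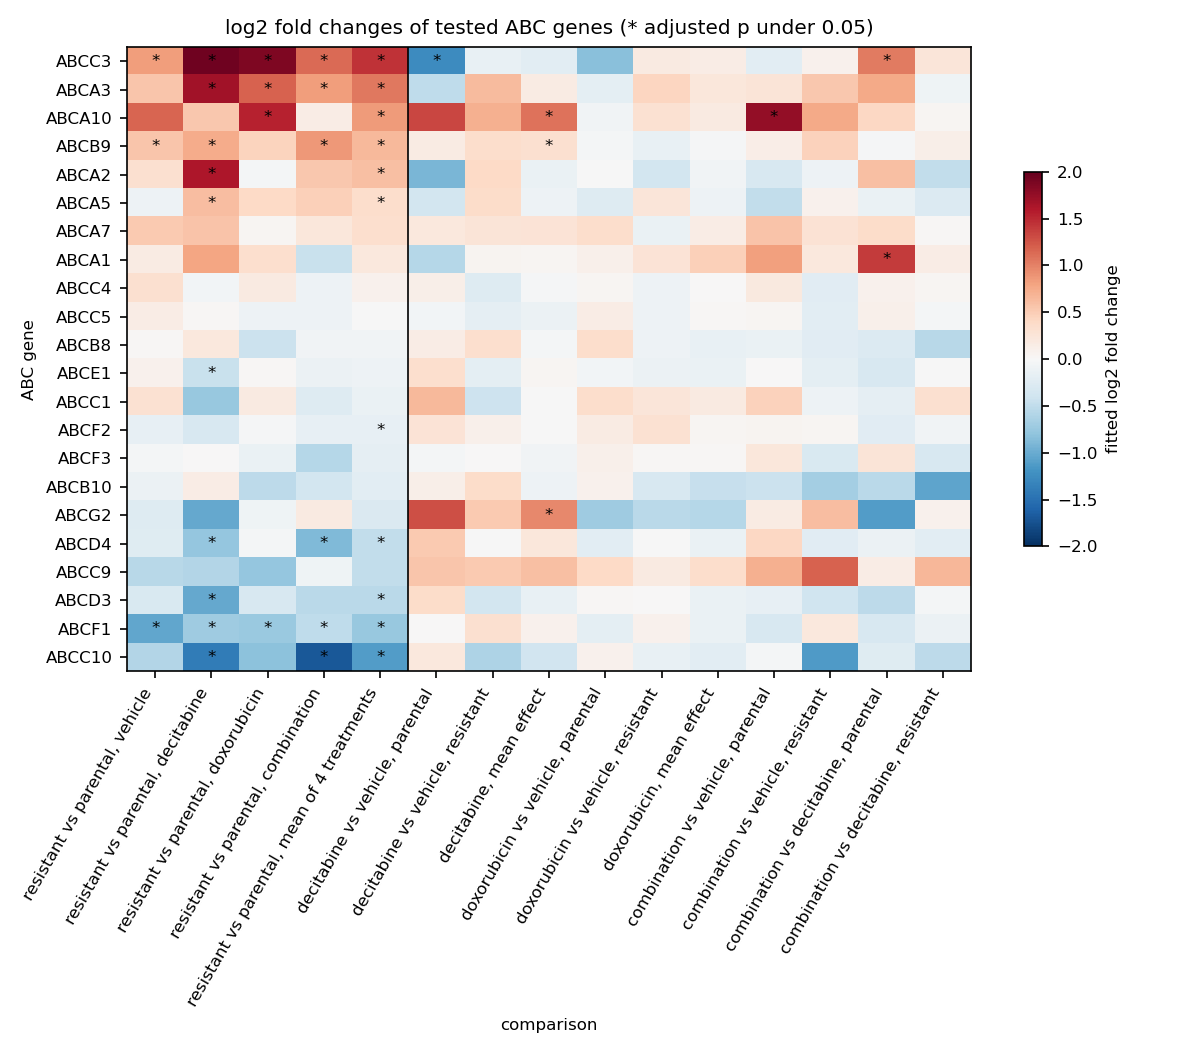
Fitted log2 fold changes of 22 of the 23 tested ABC genes (rows, ordered by the line difference) in 15 comparisons (columns), with comparisons of the lines left of the black line, drug comparisons right of it, and stars for adjusted p under 0.05. Calls are mostly left of the line, with ABCC3 and ABCA3 at the top and ABCF1 and ABCC10 at the bottom.

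Under vehicle alone, 3 of 23 members were called (13%, against 20.1% of all genes), ABCC3 and ABCB9 higher (8.66% of all genes) and ABCF1 lower (11.5%). Under decitabine the count was 10, against 26.8% of all genes, with 5 higher (13.7%) and 5 lower (13.1%). Under doxorubicin 4 were called (13.9% of all genes), 3 higher (5.88%) and 1 lower (8.05%). Under the combination 7 were called (21.9% of all genes), 3 higher (10.6%) and 4 lower (11.4%). Under decitabine 6 of the 10 calls were left without parental vehicle 3 and resistant decitabine 2, or when the 2 groups were fitted alone. ABCE1, which was not called in the other comparisons of the lines, was lower in resistant tumours under decitabine, at -0.44 (SE 0.14), adjusted p = 0.019, and that call was lost without parental decitabine 3 or resistant decitabine 2, without both libraries that stand apart, and when the 2 groups were fitted alone. The 3 tests of whether a drug response differed between the lines called 0 members in edgeR and in DESeq2, with 6 members for decitabine, 2 for doxorubicin and 4 for the combination at an unadjusted p under 0.05. Of all genes, 0.119%, 0% and 0.0222% were called in those tests at an adjusted p under 0.05. No share of all genes at an unadjusted p was computed, so the 6, 2 and 4 members have no background here.

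Coordinates are those of GENCODE 29 on GRCh38. Among the drug efflux pumps, ABCB1 (ENSG00000085563, chromosome 7, 87503633 to 87713323, minus strand) was close to undetected in both lines. Its counts per library were 0, 1, 4 and 1 under vehicle, 0, 1, 2 and 1 under decitabine, 2, 0 and 0 under doxorubicin and 0, 1, 0 and 1 under the combination in parental tumours. In resistant tumours they were 1, 1, 0 and 0, 0, 1 and 4, 0, 0, 1 and 0 and 0, 1 and 0 in the same order. The highest count of any library was 4, reached in parental vehicle 3 and resistant decitabine 3, and the sums were 14 counts over 15 parental and 9 over 14 resistant libraries. The ratio of resistant to parental was 0.755 with an exact 95% interval of 0.288 to 1.87, which covers counting error only.

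ABCC1 (ENSG00000103222, chromosome 16, 15949577 to 16143074, plus strand), the multidrug resistance protein that exports glutathione conjugates and anthracyclines, was low in both lines (279 counts in all). Parental libraries gave 1.85, 1.09, 2.06 and 1.60 under vehicle, 3.04, 2.11, 2.15 and 3.02 under decitabine, 3.08, 1.76 and 1.30 under doxorubicin, and 3.54, 1.57, 1.61 and 2.29 under the combination (CPM). Resistant libraries gave 2.91, 2.28, 1.36 and 1.58 under vehicle, 1.85, 0.565 and 1.92 under decitabine, 2.40, 2.18, 1.79 and 3.16 under doxorubicin, and 2.38, 1.21 and 2.01 under the combination. Over all treatments the ranges covered each other almost entirely, and the log2 difference between the lines was -0.14 (SE 0.19), adjusted p = 0.601. Under decitabine alone the resistant libraries lay below the parental ones without overlap (as for 31.1% of all genes). The parental libraries with decitabine alone lay above those with vehicle (9.46% of all genes did not overlap there). ABCC1 was called in neither comparison. ABCC4 and ABCC5 were 34.1 ± 3.72 CPM (SD, n = 15) in parental and 36.3 ± 5.00 CPM (SD, n = 14) in resistant libraries, and 34.6 ± 5.62 CPM (SD, n = 15) in parental and 34.7 ± 4.33 CPM (SD, n = 14) in resistant libraries, with log2 differences of 0.08 (SE 0.07) and -0.01 (SE 0.08) (adjusted p = 0.37 and 0.924 in edgeR). ABCC9, a subunit of potassium channels, stood at -0.50 (SE 0.22) (adjusted p = 0.0664) and was not called.

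ABCC3 (ENSG00000108846, chromosome 17, 50634777 to 50692252, plus strand), an exporter of glucuronide and bile acid conjugates that has been reported to carry some anticancer drugs, showed the largest log2 difference between the lines among the 23 tested members. Parental libraries held 6.03, 5.87, 6.17 and 11.6 under vehicle, 2.85, 3.83, 2.92 and 2.79 under decitabine, 5.19, 4.39 and 2.61 under doxorubicin, and 7.26, 4.13, 7.26 and 7.08 under the combination (CPM). Resistant libraries held 19.2, 8.87, 15.6 and 9.72 under vehicle, 11.1, 13.6 and 11.5 under decitabine, 14.6, 17.2, 14.98 and 13.7 under doxorubicin, and 15.2, 8.46 and 18.7 under the combination. Only parental vehicle 4 reached into the resistant range. The levels were 5.33 ± 2.42 CPM (SD, n = 15) in parental and 13.7 ± 3.44 CPM (SD, n = 14) in resistant libraries, a log2 fold change of 1.45 (SE 0.15), adjusted p = 3.1e-09 in edgeR. Within treatments it was 0.84 (SE 0.27) under vehicle, 1.94 (SE 0.31) under decitabine, 1.86 (SE 0.31) under doxorubicin and 1.14 (SE 0.28) under the combination, each called. The call under vehicle was lost without parental vehicle 1, 2 or 3 or resistant vehicle 1 or 3, without both libraries that stand apart, and when the 2 groups were fitted alone.

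ABCC10 (ENSG00000124574, chromosome 6, 43427366 to 43450430, plus strand), a pump known to transport taxanes, was lower in the resistant line. Its counts were few (315 in all). Parental libraries showed 4.41, 3.48, 1.54 and 2.28 under vehicle, 3.797, 2.88, 4.09 and 2.79 under decitabine, 3.46, 3.95 and 1.82 under doxorubicin, and 2.42, 2.95, 2.62 and 3.54 under the combination (CPM), and resistant libraries 3.40, 1.77, 1.36 and 1.36 under vehicle, 2.26, 0.282 and 1.06 under decitabine, 1.60, 1.74, 2.68 and 1.05 under doxorubicin, and 0.649, 0.967 and 1.00 under the combination. Of the 14 resistant libraries, 6 lay within the parental range, and all 3 resistant combination libraries lay below it. The log2 fold change was -1.12 (SE 0.22), adjusted p = 0.000102. ABCC10 shares 79 exon bases with DLK2 on the opposite strand, and the strand setting of the counting was not given in the sources used here.

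**Figure D3:**
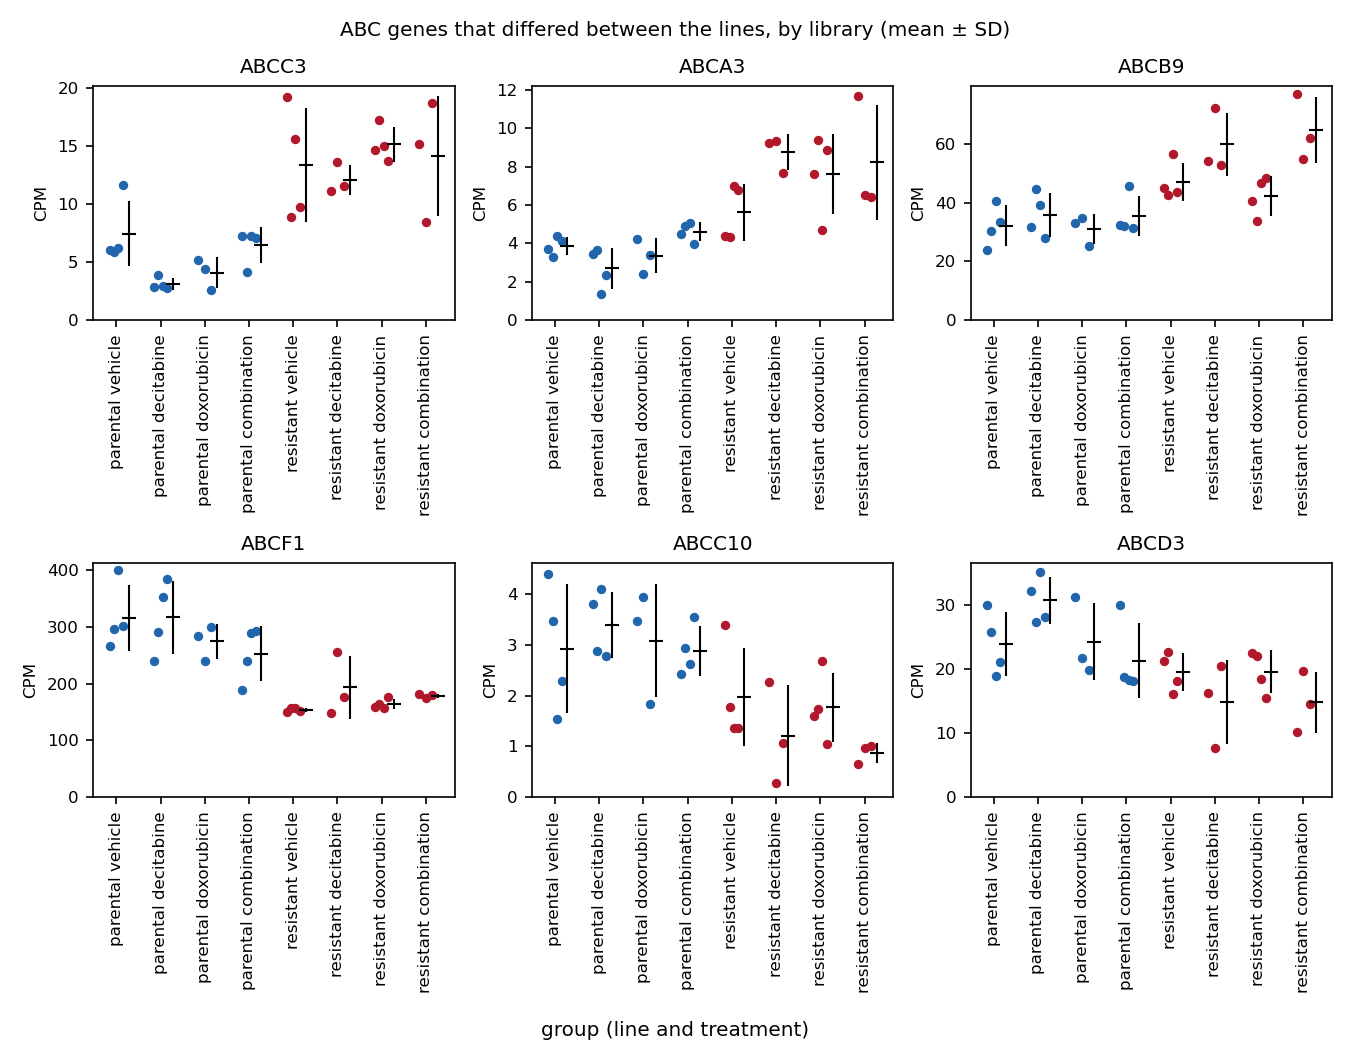
CPM per library of 6 ABC genes in the 8 groups of line and treatment (points), with group means ± SD (black; n = 3 or 4 per group). ABCC3, ABCA3 and ABCB9 sit higher in the resistant groups (red) than in the parental groups (blue), and ABCF1, ABCC10 and ABCD3 lower; resistant decitabine 2 is the ABCF1 point at 256 CPM and the ABCD3 point at 7.63 CPM.

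Subfamily A members move lipids. ABCA3 (ENSG00000167972, chromosome 16, 2275881 to 2340746, minus strand), the phospholipid transporter of lamellar bodies, held 3.71, 3.26, 4.37 and 4.11 under vehicle, 3.42, 3.64, 1.36 and 2.32 under decitabine, 4.23, 2.42 and 3.39 under doxorubicin, and 4.47, 4.91, 5.04 and 3.96 under the combination CPM in parental libraries. In resistant libraries it held 4.37, 4.31, 7.01 and 6.78 under vehicle, 9.25, 9.32 and 7.67 under decitabine, 7.61, 9.37, 4.70 and 8.84 under doxorubicin, and 11.7, 6.53 and 6.43 under the combination CPM. Only 3 of the 14 resistant libraries lay within the parental range, and the line difference was 1.06 (SE 0.14), adjusted p = 5.75e-07 (edgeR). The difference was called under decitabine (1.68 (SE 0.29)), doxorubicin (1.18 (SE 0.30)) and the combination (0.83 (SE 0.28)), while under vehicle it was 0.55 (SE 0.28), adjusted p = 0.173. Without parental doxorubicin 2 the call under doxorubicin was lost, and the call under the combination was lost without parental combination 1 or 4 or resistant combination 1, with no filter on low counts, and when the 2 groups were fitted alone.

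ABCA2 (ENSG00000107331, chromosome 9, 137007227 to 137028922, minus strand), an endolysosomal sterol and lipid transporter, varied among parental libraries, with 1.39, 1.96, 6.17 and 5.47 under vehicle, 1.71, 3.07, 0.975 and 2.09 under decitabine, 4.04, 3.29 and 3.65 under doxorubicin, and 2.79, 2.75, 3.03 and 3.33 under the combination CPM. Its resistant libraries had 5.34, 4.31, 4.75 and 4.07 under vehicle, 5.96, 8.19 and 4.26 under decitabine, 3.20, 3.70, 3.58 and 3.79 under doxorubicin, and 4.76, 2.66 and 5.43 under the combination CPM. The lines overlapped in 13 of the 14 resistant libraries, with a log2 difference of 0.61 (SE 0.18), adjusted p = 0.00695, and under decitabine the groups did not overlap (as for 31.1% of all genes; 1.62 (SE 0.37), adjusted p = 0.00177). ABCA5 (ENSG00000154265, chromosome 17, 69244311 to 69327244, minus strand), a lysosomal and late endosomal member, read 27.8, 21.5, 26.5 and 18.9 under vehicle, 18.8, 18.6, 17.9 and 18.3 under decitabine, 21.5, 21.7 and 15.9 under doxorubicin, and 15.4, 12.8, 20.4 and 19.0 under the combination CPM in parental libraries. It read 23.3, 20.8, 23.3 and 21.0 under vehicle, 25.1, 33.3 and 27.0 under decitabine, 23.4, 28.8, 32.4 and 19.8 under doxorubicin, and 21.4, 25.4 and 23.5 under the combination CPM in resistant ones. The ranges overlapped in 11 of 14 resistant libraries and the log2 difference was 0.35 (SE 0.09), adjusted p = 0.00135. Its call under decitabine, 0.62 (SE 0.17), was lost without resistant decitabine 2.

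ABCA1, the cholesterol and phospholipid exporter that loads apolipoprotein A-I, and ABCA7, its close relative, were not called between the lines. ABCA1 was 11.7 ± 5.73 CPM (SD, n = 15) in parental and 12.7 ± 4.06 CPM (SD, n = 14) in resistant libraries, and ABCA7 was 3.24 ± 0.959 CPM (SD, n = 15) in parental and 4.01 ± 1.06 CPM (SD, n = 14) in resistant libraries. Their log2 differences were 0.21 (SE 0.19) and 0.34 (SE 0.15), with adjusted p = 0.374 and 0.0668 in edgeR.

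In subfamily B the tested members reside inside the cell. ABCB9 (ENSG00000150967, chromosome 12, 122920951 to 122981649, minus strand), a lysosomal peptide transporter, read 23.9, 30.4, 40.6 and 33.5 under vehicle, 31.5, 44.5, 39.0 and 27.9 under decitabine, 33.1, 34.9 and 25.3 under doxorubicin, and 32.2, 32.0, 45.6 and 31.4 under the combination CPM in parental libraries. Resistant libraries read 44.9, 42.6, 56.5 and 43.6 under vehicle, 54.2, 72.3 and 52.8 under decitabine, 40.5, 33.6, 46.5 and 48.4 under doxorubicin, and 77.1, 54.9 and 62.1 under the combination CPM. Of the resistant libraries, 5 of 14 lay within the parental range, and the log2 difference was 0.65 (SE 0.09), adjusted p = 1.44e-06. Under vehicle it was 0.55 (SE 0.18), adjusted p = 0.0276, a call that was lost without parental vehicle 1 or 2 or resistant vehicle 3. ABCB9 shares 1656 exon bases with OGFOD2 and 1590 with ARL6IP4, both on the opposite strand. These genes held 95 and 3 counts and ABCB9 5657, and whether reads were shared was not tested, so its values are uncertain.

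The mitochondrial members ABCB8 and ABCB10 had log2 differences of -0.06 (SE 0.13) and -0.21 (SE 0.28) and no call in any of the 20 comparisons. ABCB10 has pseudogene copies, so its 203 counts are uncertain.

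Of subfamily D, ABCD3 (ENSG00000117528, chromosome 1, 94418455 to 94518666, plus strand), a peroxisomal importer of branched-chain acyl-CoA and bile acid precursors, gave 29.9, 25.6, 18.8 and 21.0 under vehicle, 32.1, 27.2, 35.1 and 28.1 under decitabine, 31.2, 21.7 and 19.8 under doxorubicin, and 30.0, 18.7, 18.2 and 18.1 under the combination CPM in parental libraries. Resistant libraries gave 21.1, 22.6, 16.1 and 18.1 under vehicle, 16.2, 7.63 and 20.4 under decitabine, 22.4, 22.01, 18.3 and 15.4 under doxorubicin, and 10.2, 19.6 and 14.5 under the combination CPM. Of the resistant libraries 7 of 14 lay within the parental range, and the log2 difference was -0.54 (SE 0.12), adjusted p = 0.000629. By treatment ABCD3 was called only under decitabine, at -1.03 (SE 0.25), adjusted p = 0.00335 in edgeR. ABCD4 (ENSG00000119688, chromosome 14, 74285423 to 74303056, minus strand), which works in lysosomal export of vitamin B12, gave 8.35, 5.43, 5.14 and 5.47 under vehicle, 10.8, 9.20, 7.61 and 7.43 under decitabine, 5.96, 4.83 and 4.95 under doxorubicin, and 13.6, 5.70, 6.46 and 6.67 under the combination CPM in parental libraries. It gave 6.07, 5.07, 5.43 and 4.07 under vehicle, 5.34, 3.39 and 6.39 under decitabine, 7.21, 5.45, 3.58 and 4.21 under doxorubicin, and 4.55, 3.38 and 5.22 under the combination CPM in resistant libraries, of which 8 of 14 lay within the parental range. Its log2 difference was -0.48 (SE 0.15), adjusted p = 0.00747. By treatment ABCD4 was called under decitabine (-0.78 (SE 0.29)) and the combination (-0.88 (SE 0.29)), and not under vehicle or doxorubicin. The decitabine call was kept in 2 of 7 fits that left out 1 library and under 3 of 8 other settings. The combination call was kept in 4 of 7 such fits and under 7 of 8 settings. ABCD4 shares 624 exon bases on the same strand with AC005519.1, which held 1 count.

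ABCF1 (ENSG00000204574, chromosome 6, 30571376 to 30597179, plus strand) was lower in resistant tumours under every treatment. Parental libraries held 267, 296, 399.7 and 302 under vehicle, 240.0, 291, 354 and 384 under decitabine, 284, 240.4 and 300.2 under doxorubicin, and 189, 240.1, 290.0 and 293 under the combination CPM. Resistant libraries held 149.8, 157, 157 and 151 under vehicle, 148, 256 and 176 under decitabine, 159, 163, 156 and 176 under doxorubicin, and 181, 174 and 180.3 under the combination CPM. Only resistant decitabine 2 lay within the parental range. The log2 difference was -0.75 (SE 0.08), adjusted p = 1.66e-08, and by treatment it was -1.04 (SE 0.16) under vehicle, -0.72 (SE 0.17) under decitabine, -0.75 (SE 0.17) under doxorubicin and -0.50 (SE 0.17) under the combination. The call under decitabine was lost when the 2 groups were fitted alone. The call under the combination was lost in 6 of 7 fits that left out 1 library, those without parental combination 2, 3 or 4 or without resistant combination 1, 2 or 3.

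ABCF2 (ENSG00000033050, chromosome 7, 151212490 to 151227230, minus strand), a second cytosolic F member, differed little, with 22.7, 22.4, 20.1 and 22.4 under vehicle, 25.2, 23.8, 29.8 and 26.9 under decitabine, 27.7, 19.98 and 26.1 under doxorubicin, and 23.1, 20.6, 26.0 and 21.0 under the combination CPM in parental libraries. Resistant libraries had 19.9, 21.0, 17.2 and 20.3 under vehicle, 20.1, 20.1 and 23 under decitabine, 24.2, 22.7, 22.6 and 27.1 under doxorubicin, and 19.3, 21.8 and 19.5 under the combination CPM. Its log2 difference was -0.17 (SE 0.07), adjusted p = 0.033, and this call was lost in 16 of 29 fits that left out 1 library, with DESeq2, with no filter on low counts, and with size factors or upper quartile factors in place of trimmed means. ABCF2 shares 1914 exon bases on the same strand with AC021097.2, a gene without a row in the count table. Any effect of this on the ABCF2 counts was not tested. ABCF3 was not called, at -0.19 (SE 0.10), adjusted p = 0.148. ABCE1 (ENSG00000164163, chromosome 4, 145097932 to 145129179, plus strand) gave 116, 99.7, 86.4 and 87.8 under vehicle, 115, 118, 141 and 117 under decitabine, 94.5, 92.2 and 93.8 under doxorubicin, and 116, 93.9, 93.6 and 88.5 under the combination CPM in parental libraries. It gave 96.2, 118, 87.5 and 114 under vehicle, 94.5, 74.9 and 103 under decitabine, 96.1, 90.2, 93.2 and 102 under doxorubicin, and 73.2, 108 and 91.4 under the combination CPM in resistant libraries, with ranges that overlapped in 12 of 14 and a log2 difference of -0.11 (SE 0.07), adjusted p = 0.197. ABCE1 shares exon bases with ANAPC10 (469) and OTUD4 (276) on the opposite strand.

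Decitabine, averaged over the lines and over the presence of doxorubicin, raised 3 of 23 members, ABCA10, ABCG2 and ABCB9, and lowered none, against 6.8% of all genes called in either direction and 3.96% called higher. The median log2 fold change was -0.0018 over the members and -0.0061 over all genes. These 3 genes are shown with the stretch of RefSeq promoter (upstream of an annotated start, GRCh38.p14) that holds no annotated exon, because decitabine blocks the enzymes that methylate CpG dinucleotides and the genes differ in CpG content. ABCF1, which was called between the lines and not for decitabine, is added for comparison. Capitals mark CpG dinucleotides.
ABCG2, chr4:88159025-88159159, minus strand: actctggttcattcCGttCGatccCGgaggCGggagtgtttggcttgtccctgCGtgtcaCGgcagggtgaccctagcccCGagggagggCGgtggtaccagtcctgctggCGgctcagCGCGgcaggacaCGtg
ABCB9, chr12:122966510-122966713, minus strand: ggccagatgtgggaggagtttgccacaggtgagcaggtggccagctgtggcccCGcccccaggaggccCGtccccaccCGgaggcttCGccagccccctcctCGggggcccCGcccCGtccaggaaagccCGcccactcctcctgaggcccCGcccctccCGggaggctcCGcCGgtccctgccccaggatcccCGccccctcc
ABCA10, chr17:69228861-69229074, minus strand: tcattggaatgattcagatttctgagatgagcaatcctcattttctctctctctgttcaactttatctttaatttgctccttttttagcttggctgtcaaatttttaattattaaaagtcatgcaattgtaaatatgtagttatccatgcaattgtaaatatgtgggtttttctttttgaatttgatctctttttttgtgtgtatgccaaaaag
ABCF1, chr6:30571192-30571375, plus strand: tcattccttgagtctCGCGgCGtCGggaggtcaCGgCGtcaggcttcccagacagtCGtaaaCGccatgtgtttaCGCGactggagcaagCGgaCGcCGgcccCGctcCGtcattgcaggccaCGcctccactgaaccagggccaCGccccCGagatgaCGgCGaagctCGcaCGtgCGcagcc
The stretches hold 12 CpG in 135 bases for ABCG2, 13 in 204 for ABCB9, 0 in 214 for ABCA10 and 23 in 184 for ABCF1. Those of ABCG2, ABCB9 and ABCA10 lie inside the gene bounds stated here, before a start within the gene, whereas that of ABCF1 adjoins its gene start. The ABCA10 stretch is not upstream of the first exon that overlaps ABCA5. Any other start of these genes is not shown, so the CpG numbers describe single starts. Over full windows of 250 bases, the median was 11 CpG among 35116 windows of all genes and 16 among 53 windows of the 35 members with an entry. The 20 tested members with an entry had a median of 26.5 in their richest window and the 15 untested ones 7. Over all genes the median of the richest window was 12, and no value for tested genes alone was computed. No methylation was measured in these tumours.

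ABCG2 (ENSG00000118777, chromosome 4, 88090264 to 88231322, minus strand), the breast cancer resistance protein, is a broad drug exporter. Parental libraries held 4.41, 2.17, 5.92 and 1.14 under vehicle, 5.32, 6.33, 16.0 and 5.11 under decitabine, 2.69, 1.98 and 1.30 under doxorubicin, and 3.17, 3.54, 3.83 and 4.58 under the combination CPM. Resistant libraries held 3.16, 4.56, 2.04 and 1.58 under vehicle, 3.08, 3.67 and 5.32 under decitabine, 1.60, 2.18, 2.46 and 1.47 under doxorubicin, and 3.03, 7.01 and 3.01 under the combination CPM. Every library with decitabine exceeded 3 CPM, whereas those without it had medians of 2.17 CPM (parental) and 2.11 CPM (resistant), with overlap in both lines. The mean decitabine effect was 0.96 (SE 0.23), adjusted p = 0.0109 in edgeR, and it was called in all 29 fits that left out 1 library. The 4 single effects were 1.28 (SE 0.40) and 0.52 (SE 0.48) without doxorubicin and 0.88 (SE 0.50) and 1.15 (SE 0.49) with it, in parental and resistant tumours, none of them called (adjusted p from 0.0822 to 0.561). Between the lines its level was not called different, at -0.29 (SE 0.24), adjusted p = 0.322.

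ABCA10 (ENSG00000154263, chromosome 17, 69147214 to 69244846, minus strand), one of the neighbouring A members on chromosome 17 (ABCA5, ABCA6, ABCA8, ABCA9 and ABCA10), held 0.696, 0.652, 0.514 and 0.912 under vehicle, 1.14, 2.49, 1.95 and 1.62 under decitabine, 0.769, 0.658 and 0.521 under doxorubicin, and 1.86, 3.34, 2.42 and 2.08 under the combination CPM in parental libraries. In parental tumours all 8 libraries with decitabine (1.14 to 3.34 CPM) lay above all 7 without it (0.514 to 0.912 CPM), and 0.489% of all genes did not overlap between these libraries. Resistant libraries held 1.21, 1.01, 2.04 and 2.03 under vehicle, 4.32, 1.70 and 1.70 under decitabine, 1.60, 1.09, 2.91 and 2.31 under doxorubicin, and 3.03, 2.66 and 2.41 under the combination CPM, where 2 of the 6 with decitabine exceeded all 8 without it. The mean decitabine effect was 1.08 (SE 0.21), adjusted p = 0.00118. Single effects were 1.34 (SE 0.43) and 1.84 (SE 0.45) in parental and 0.72 (SE 0.38) and 0.45 (SE 0.36) in resistant tumours, and the difference between the lines' responses to decitabine alone was -0.62 (SE 0.57), adjusted p = 0.554. The line difference averaged over treatments was 0.85 (SE 0.21), adjusted p = 0.0013. ABCA10 has 242 counts in all, and its first exon shares 318 bases on the same strand with the 3′ end of ABCA5 (2934 counts), so reads could have been split between the 2 genes and these values are uncertain.

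For ABCA5 itself the mean decitabine effect was -0.10 (SE 0.09), adjusted p = 0.584 in edgeR. That mean covers opposite directions in the lines. Under decitabine alone ABCA5 lay below vehicle in parental tumours (17.9 to 18.8 against 18.9 to 27.8 CPM). It lay above vehicle in resistant tumours (25.1 to 33.3 against 20.8 to 23.3 CPM). Neither pair of groups overlapped (as for 9.46% and 16% of all genes), and neither change was called. Whether reads of ABCA5 affected the values of ABCA10 was not tested. ABCB9 had a smaller mean effect than ABCA10 and ABCG2, 0.32 (SE 0.09), adjusted p = 0.0319 in edgeR. It was called in 22 of 29 fits that left out 1 library. Leaving out parental decitabine 2 or 3, parental combination 3, parental doxorubicin 3, resistant decitabine 2, resistant combination 1 or resistant doxorubicin 2 ended the call. Its single effects were 0.16 (SE 0.18) and 0.18 (SE 0.19) in parental and 0.35 (SE 0.19) and 0.62 (SE 0.18) in resistant tumours.

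**Figure D4:**
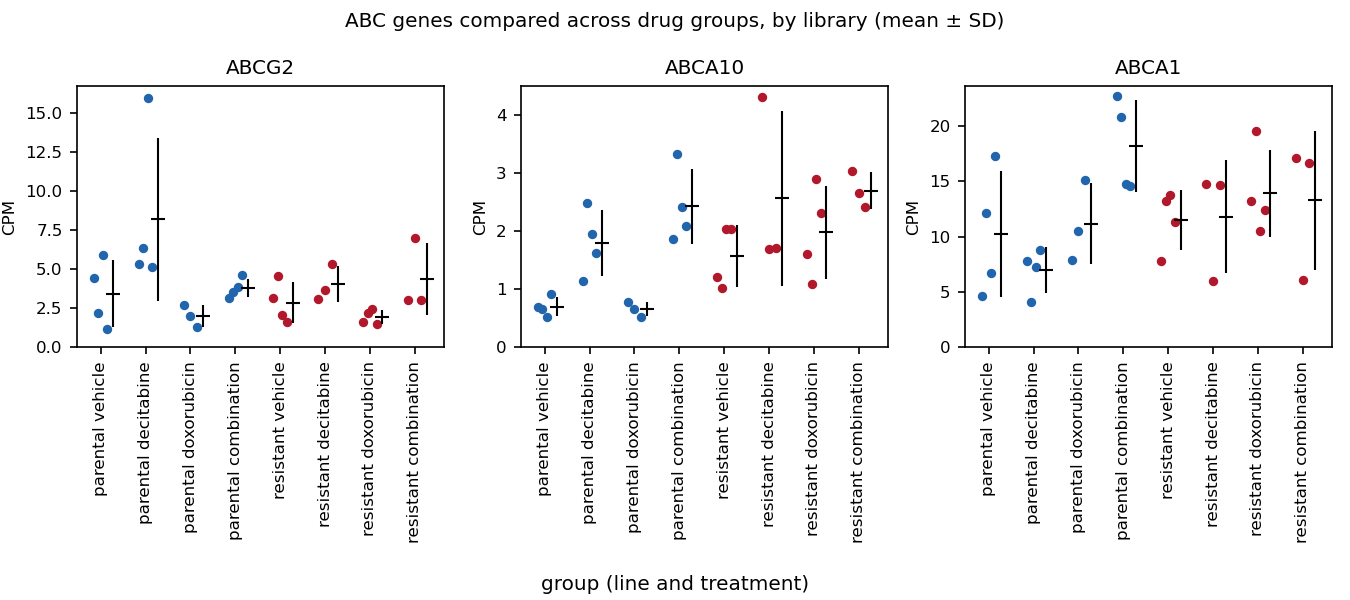
CPM per library of ABCG2, ABCA10 and ABCA1 in the 8 groups (points), with group means ± SD (black; n = 3 or 4 per group). ABCA10 separates the parental groups with decitabine (1.14 to 3.34 CPM) from those without it (0.514 to 0.912 CPM), and parental decitabine 3 is the ABCG2 point at 15.99 CPM.

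Drug comparisons within a line called 0 to 2 members each. Decitabine alone called 1 of 23 members in parental tumours (1.67% of all genes, 0.874% lower), ABCC3, which fell from 7.43 ± 2.81 to 3.10 ± 0.494 CPM (SD, n = 4 each), a log2 change of -1.25 (SE 0.31), adjusted p = 0.0366. The groups did not overlap, as for 9.46% of all genes. Leaving out parental vehicle 3 or 4, or parental decitabine 1, 2 or 3, ended the call, as did a fit of the 2 groups alone. In resistant tumours the ABCC3 change was -0.15 (SE 0.28), adjusted p = 0.793, and the difference between these responses was 1.10 (SE 0.41), adjusted p = 0.16. No member was called for decitabine alone in resistant tumours (3.33% of all genes) in edgeR or DESeq2, with 3 at an unadjusted p under 0.05.

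Doxorubicin called 0 members in parental tumours (0.23% of all genes), resistant tumours (0%) or on average (2.37%), in edgeR and in DESeq2, with 1, 1 and 2 members at an unadjusted p under 0.05. The 2 of the average effect were ABCA1 (0.48 (SE 0.19), adjusted p = 0.152) and ABCG2 (-0.57 (SE 0.23), adjusted p = 0.177). Without the filter on low counts, 1 member was called on average. ABCC3 in parental tumours was 4.06 ± 1.32 CPM under doxorubicin (n = 3), -0.84 (SE 0.32) against vehicle (adjusted p = 0.325).

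The combination raised ABCA10 in parental tumours against vehicle (1.76 (SE 0.41), adjusted p = 0.0292), 1 of 23 members against 1.03% of all genes (0.645% higher). That call was lost without parental combination 2, parental vehicle 1, 2 or 3, or both libraries that stand apart. Against decitabine alone, the parental combination called 2 members higher (6.63% of all genes, 2.73% higher), ABCA1 and ABCC3. ABCA1 (ENSG00000165029, chromosome 9, 104781002 to 104928237, minus strand) held 4.64, 12.2, 6.69 and 17.3 under vehicle, 7.78, 4.03, 7.21 and 8.82 under decitabine, 7.89, 10.5 and 15.1 under doxorubicin, and 22.7, 20.8, 14.7 and 14.6 under the combination CPM in parental libraries. Its resistant libraries held 7.77, 13.2, 13.8 and 11.3 under vehicle, 14.8, 5.93 and 14.7 under decitabine, 13.2, 19.6, 10.5 and 12.4 under doxorubicin, and 17.1, 6.04 and 16.7 under the combination CPM. The 4 parental combination libraries all exceeded the 4 with decitabine alone (15.9% of all genes did not overlap there), at 1.39 (SE 0.35), adjusted p = 0.0189, and the combination against vehicle was 0.83 (SE 0.34), adjusted p = 0.207. ABCC3 changed by 1.04 (SE 0.31), adjusted p = 0.0361, from the low level under decitabine alone back to 6.43 ± 1.54 CPM. The ABCA1 call was lost without parental decitabine 2 or 3 or parental combination 1 or 2, and the ABCC3 call without parental decitabine 1, 3 or 4 or parental combination 1, 3 or 4.

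Other comparisons of the combination called no member in edgeR or DESeq2. Against doxorubicin in parental tumours, 2 members had an unadjusted p under 0.05 (0.304% of all genes called). In resistant tumours the numbers were 4 against vehicle (1.13%), 3 against doxorubicin (0.66%, with 1 member called when no filter was used) and 0 against decitabine (0%). The shares of all genes in brackets are calls at an adjusted p under 0.05. They cannot be set against the members counted at an unadjusted p, for which no share of all genes was computed.

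The 22 untested members were read as counts summed over libraries. ABCA13, a large A member, had 41 parental and 77 resistant counts, a ratio of 2.21 (exact 95% interval 1.49 to 3.31) for resistant over parental after scaling by library size. ABCC6, a hepatic exporter involved in ectopic calcification, had 9 and 24 (3.13, 1.41 to 7.66), and it has near-identical pseudogene copies, so its counts are uncertain. The intervals of ABCA4, ABCA6, ABCA8, ABCA9, ABCA12, ABCB4, ABCB6, ABCC2, ABCD2, ABCG1 and ABCG4 included 1. All these intervals cover counting error only, and no share over all genes with low counts was computed beside them. ABCB4, the hepatic phosphatidylcholine pump next to ABCB1, had 13 and 7 counts (0.633, 0.214 to 1.71), and ABCB5 had 0 and 2. ABCB6 shares 2864 exon bases on the same strand with AC068946.2, a gene without a row in the count table, so its 9 and 5 counts are uncertain.

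Drug groups of the untested members were compared with vehicle of the same line where both held at least 10 counts together, which gave 35 ratios. The intervals of 3 of them left out 1, with no adjustment for the number compared. These intervals cover counting error only, and libraries of a group differed by more than that. No share over all genes with low counts was computed, so the 3 ratios have no background here and are not read as drug responses. ABCA4, a retinal lipid importer, had 14 counts in parental decitabine against 2 in parental vehicle, a ratio of 6.24 (1.43 to 56.6). ABCA13 had 3 in parental doxorubicin against 14 in vehicle (0.264, 0.0486 to 0.945) and ABCC2, an apical conjugate exporter, 4 in the parental combination against 13 in vehicle (0.262, 0.0622 to 0.848). ABCG1, the cholesterol exporter that acts beside ABCA1, had 28 and 24 counts in the 2 lines (1.01, 0.559 to 1.80). No counts at all were found for ABCB11, ABCC8, ABCC11, ABCC12, ABCG5 and ABCG8, which are known from liver, gut, endocrine or glandular tissue; this allows up to 3 counts over the 29 libraries for each.

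**Figure D5:**
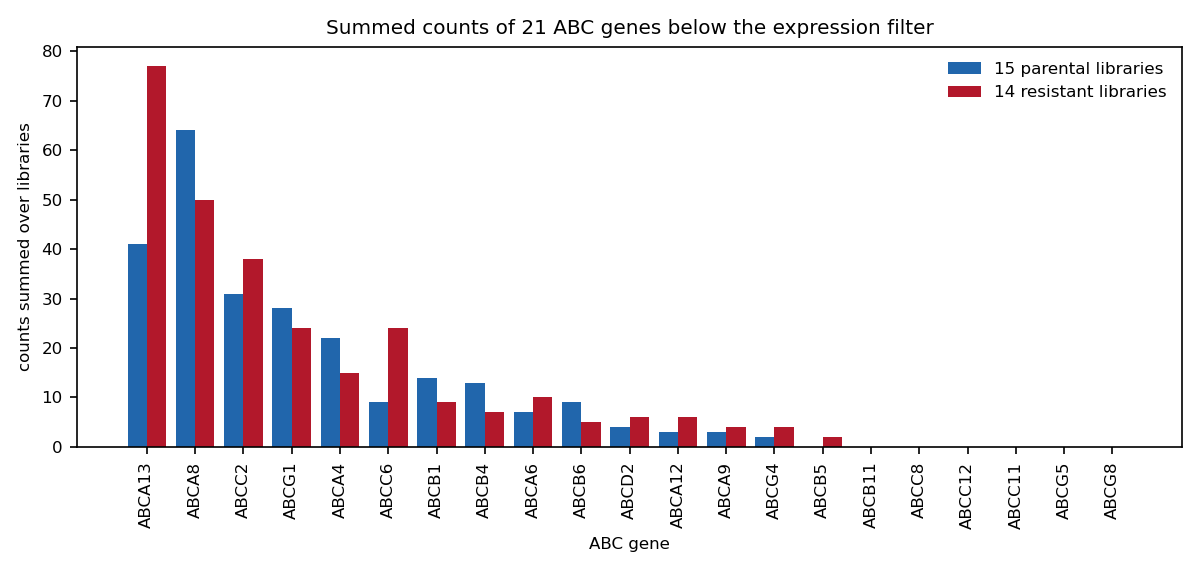
Counts summed over the 15 parental (blue) and 14 resistant (red) libraries for 21 of the 22 ABC genes below the filter on low counts, in order of their total. ABCB1 reached 14 and 9 counts and ABCC6 9 and 24, and the 6 genes at the right had none.

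Genes that work with the family were read from lists beside it. Between the lines, averaged over treatments, 4 rose and 5 fell of 15 tested transcriptional regulators of ABC genes (median log2 -0.12, against -0.0035 over all genes). Of all genes tested, 22.6% were higher and 23.4% lower in this comparison, and the counts of every list below stand beside these shares. In the list of regulators, YBX1 at -1.04 (SE 0.07) and RXRB at -0.68 (SE 0.08) had the smallest adjusted p. Of 19 peroxisomal fatty acid oxidation and biogenesis genes, 2 rose and 8 fell (median -0.14), with ECI2 at -0.50 (SE 0.08). Of 19 ribosome recycling, termination and stress sensing genes, 1 rose and 5 fell (median -0.08), with EIF5 at -0.36 (SE 0.05) and DENR at -0.31 (SE 0.05). Of 14 genes of sterol uptake, synthesis and storage, 1 rose and 5 fell (median -0.12), with SQLE at -0.96 (SE 0.08).

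Of 11 LXR target genes other than ABC members, 3 rose and 3 fell (22.6% and 23.4% of all genes; median -0.10), with PLTP at 0.65 (SE 0.10) and SCD at -0.43 (SE 0.08). Of 19 mitochondrial iron-sulphur and haem genes, 4 rose and 6 fell (median -0.10), and of 8 cytosolic iron-sulphur assembly genes, 1 rose and 2 fell (median -0.06). Of 17 glutathione conjugation and supply genes, 3 rose and 6 fell (median 0.0052), with GSTP1 at -0.98 (SE 0.08) and GSTM4 at -0.90 (SE 0.11). Of 15 other taxane and anthracycline handling genes, 3 rose and 3 fell (median -0.02), and of 11 partner proteins of ABC members, 4 rose and 1 fell (median -0.02), with RDX, a membrane linker, at 0.62 (SE 0.04). Under vehicle alone, 0 to 2 genes of each list rose and 0 to 3 fell (8.66% and 11.5% of all genes). Under the mean decitabine effect, the lists had 0 to 2 genes higher and 0 to 1 lower (6.8% of all genes in either direction), among them PLTP at 0.69 (SE 0.10) and INSIG1 at -0.67 (SE 0.10), and the mean doxorubicin effect called 1 gene in all (2.37% of all genes), the regulator YBX1, at -0.27 (SE 0.07). Decitabine alone called 0 or 1 gene per list and direction in each line (1.67% of all genes in parental and 3.33% in resistant tumours).

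Some genes listed as markers of other cell types rose with decitabine. The counts are assigned to human genes, and whether these reads came from tumour cells or from mouse cells was not tested. On average over both lines, 3 of 4 tested endothelial markers (of 8 listed, none at 0 in every library) rose, as did 3 of 7 tested myeloid markers (of 11 listed), 1 of 4 pericyte markers and the single tested adipocyte marker, while 0 of 6 fibroblast markers did, against 3.96% of all genes. Several markers were near absent over all libraries: VWF, CLDN5 and EMCN held 8, 3 and 20 counts, and ITGAM and TYROBP 5 and 2. The endothelial sums below rest mainly on PECAM1 (mean 11.8 CPM) and ENG (8.68 CPM). The myeloid sums rest mainly on LAPTM5 (83.3 CPM) and CD68 (24.4 CPM). Whether cells of these types were present, or changed in number, was not tested. Summed endothelial markers ran from 17.3 to 26.0 in parental vehicle, 23.4 to 25.1 in parental decitabine, 23.5 to 30.6 in parental doxorubicin, 27.2 to 30.9 in parental combination, 12.4 to 16.0 in resistant vehicle, 26.4 to 32.5 in resistant decitabine, 9.39 to 20.5 in resistant doxorubicin and 27.5 to 41.8 in resistant combination (CPM). Summed myeloid markers ran from 73.0 to 112 in parental vehicle, 107 to 189.9 in parental decitabine, 108 to 122 in parental doxorubicin, 92.7 to 147 in parental combination, 117 to 149.5 in resistant vehicle, 182 to 230.3 in resistant decitabine, 83.2 to 94.1 in resistant doxorubicin and 167 to 185 in resistant combination (CPM). KCNJ8, a pericyte marker, and ADIPOQ, an adipocyte marker, had no count. Between the lines, 2 of 4 pericyte markers were higher and 0 lower, 2 of 7 myeloid markers higher and 1 lower, and 1 of 4 endothelial markers higher and 1 lower, against 22.6% and 23.4% of all genes. How reads from mouse cells were handled is not given in the sources used here, and the part of these cells in the results on ABC genes was not tested.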

How the data were processed

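Gene-level counts of 29 xenograft libraries were analysed. The kit was Lexogen QuantSeq FWD on poly(A) RNA, per the labels' protocols. The table deposited by the authors holds unnormalised integer counts for each gene. The submitters' processing notes name featureCounts, STAR 2.7.3a, cutadapt and DESeq2 and the build GRCh38.p10; annotation release, strand setting and handling of mouse reads are not given in the sources used here.

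Members and lists were chosen with earlier results of these data known. Symbols were found for 57532 of 58302 identifiers, and biotypes and coordinates came from GENCODE 29 (58039 identifiers). Genes passed filterByExpr (minimum count 10, minimum total 15; 13495 genes) and were scaled by trimmed means of M-values (factors 0.896 to 1.07). All 29 libraries entered 1 robust quasi-likelihood fit in edgeR 4.0.16 (R 4.3.3) with 8 group means and 20 contrasts, since groups then share 1 estimate of the spread (common dispersion 0.0304). P-values were adjusted by Benjamini-Hochberg over all genes within a contrast, and genes were called under 0.05. Levels are CPM. The SE of a log2 fold change is its size over the square root of the F statistic. Untested members were compared by summed counts with exact 95% conditional binomial intervals; no molecular identifiers were used here, so intervals and the floor of 3 counts cover counting error only.

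Per-library values are given for every member called in at least 1 contrast and for ABCB1, ABCC1 and ABCG2; of a list, at most the 2 called genes with the smallest adjusted p are named, except that some genes of the family and of the lists are not reported here. Alternatives were DESeq2 1.42.0, other size factors, other filters, a fit of the compared groups alone, a replicate block, and leaving out libraries. Replicates were compared in pairs, and each pair differed by more than sampling noise (chi-square over its degrees of freedom at least 3.65). On data simulated for the vehicle comparison of the lines (13282 genes), 81% of 2-fold and 97% of 4-fold changes were recovered. The changed genes were drawn only from the more abundant genes. These shares therefore do not cover members at low levels, among them ABCG2, ABCC1, ABCC10 and ABCA10.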

Additional observations from a re-analysis of the deposited data

Results flagged for a closer look

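In 85 groups of 4 libraries, from 17 members, 1 library lay far from the other 3 in 12 cases (a gap to the nearest that exceeds Dixon's 95% limit). The limit's rate of about 1 in 20 is for independent, normally distributed values. The members share libraries and some have few counts, so the 12 cases cannot be set against that rate. ABCC3 had 3 such libraries: parental vehicle 4 at 11.63 CPM (others 5.87 to 6.17), parental decitabine 2 at 3.835 CPM (others 2.79 to 2.92) and parental combination 2 at 4.126 CPM (others 7.08 to 7.26). ABCG2 stood at 15.99 CPM in parental decitabine 3, where the others held 5.11 to 6.33 CPM. ABCB9 was high in parental combination 3 (45.6 CPM) and in resistant vehicle 3 (56.53 CPM). ABCD3 (29.98 CPM) and ABCD4 (13.59 CPM) were both high in parental combination 1, and ABCD4 was also high in parental vehicle 1 (8.346 CPM). ABCE1 was high in parental decitabine 3 (141.2 CPM) and ABCF2 low in parental vehicle 3 (20.06 CPM), a library that stands apart from its group. The single ABCB1 count of the resistant doxorubicin group gave 0.2236 CPM in library 3. The other libraries of that group held 0, so any single count there would have exceeded the limit.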

How the results depend on the processing

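Among settings other than leaving out 1 library, 303 of 327 values of called members kept their call and 24 lost it, none with a reversed direction. Member counts moved by over 1.5 times in these settings. Resistant against parental under decitabine gave 6 instead of 10 members with the compared groups fitted alone, and 6 without both libraries that stand apart. Decitabine against vehicle in parental tumours gave 2 instead of 1 with no filter and 0 with the groups alone. The parental combination against vehicle gave 2 instead of 1 with no filter, 0 with the groups alone and 0 without both libraries that stand apart. With no filter, the resistant combination against doxorubicin and the mean doxorubicin effect each gave 1 instead of 0. The fit of the compared groups alone has fewer samples, and otherwise the cause was not tested. Leaving out 1 library at a time gave 11 to 15 members for the mean line difference, 1 to 4 under vehicle, 6 to 11 under decitabine, 2 to 4 under doxorubicin and 4 to 7 under the combination. It gave 2 to 4 for the mean decitabine effect, 0 to 2 for decitabine in parental tumours, 0 to 1 for the parental combination against vehicle, 0 to 2 against decitabine, 0 to 1 for the line difference in combination response, and 0 to 0 for the other comparisons. Calls over all genes varied more: decitabine in parental tumours called 225 genes, against 942 with no filter, 489 with DESeq2 and 2 with the groups alone, and in resistant tumours 450, against 1089, 608 and 104. With upper quartile factors the share of calls that were higher moved from 47.6% to 35.9% (decitabine, parental), from 51.1% to 61.3% (lines under decitabine) and from 42.2% to 52.3% (lines under doxorubicin). Of 94 pairs of libraries with the same replicate number, 32 had deviations correlated above 0.1 (range -0.411 to 0.434, median 0.0175), and 8 of 29 libraries correlated best with their own number, so numbers did not pair the libraries. With a replicate block no called member lost its call, and the lines under decitabine gave 11 instead of 10 members. Depth limits the 22 untested members, whose intervals rest on few counts.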
